A study of Homo sapiens with 6 samples.

Results

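A set of 10 named genes of blood stem and progenitor cells is described here in K562 cells, an established BCR-ABL1-positive line derived from chronic myeloid leukaemia. They are KIT, KITLG, ANGPT1, CD34, PROM1, LYL1, MSI2, ERG, MEIS1 and SOX4, taken by symbol from the deposited tables, where all 10 are present among 34796 genes of the table of drug-tolerant clones and 33312 genes of the table of short treatment. The samples were untreated parental K562, parental K562 given 225 ng/ml doxorubicin for 48 h, and 4 lines labelled anthracycline-tolerant clones, ATC1 to ATC4, which were kept in 225 ng/ml doxorubicin. All were grown in RPMI1640 with 10% fetal calf serum. The labels give the genotype as WT for the parental cells and as anthracycline-tolerant clone for the others, with no allele named. The clones came from 480 wells of 10000 cells that received 100 ng/ml and then 225 ng/ml drug, of which 21 wells held viable cells 4 weeks later and 4 could be kept growing. A well was seeded with many cells, so the labels do not show that a clone descends from 1 cell, and each clone is 1 library. Doxorubicin, an anthracycline, intercalates into DNA and blocks topoisomerase II. The parental sample has 2 libraries, 1 in each table: Parental_1 is the reference for the clones and Parental_2 for the 48 h library. Where 4 clone values are listed they stand in the order ATC1, ATC2, ATC3, ATC4.

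KIT is the receptor tyrosine kinase of stem cell factor, which KITLG encodes, and signalling through it keeps haematopoietic stem cells, early erythroid cells and mast cells alive and dividing. ANGPT1 encodes angiopoietin-1, a secreted ligand of the receptor TEK (TIE2), which stem cells and endothelium carry. CD34 and PROM1 (CD133) are surface glycoproteins used to isolate stem and progenitor cells. LYL1, ERG, MEIS1 and SOX4 encode transcription factors of the bHLH, ETS, TALE homeodomain and SOX families that act in blood stem cells and in leukaemia, and MSI2 encodes Musashi-2, an RNA-binding protein that regulates translation and is known for its role in the progression of chronic myeloid leukaemia.

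The DNA just upstream of KIT, MEIS1 and MSI2 is shown. KIT and MEIS1 were above Parental_1 in 4 of 4 clones and MSI2 was below it in 4 of 4. ANGPT1, CD34 and ERG were also above it in 4 of 4 clones and their DNA is not shown. The stretches are from RefSeq promoter windows in GRCh38.p14, limited to bases before the transcription start that lie in no GENCODE 29 exon, on the plus strand and 5′ to 3′, with the E-box letters CANNTG in capitals. The positions are chr4:54657707-54657917 for KIT, chr2:66434875-66435124 for MEIS1, which is inside the longer GENCODE gene, and chr17:57255601-57255850 for MSI2.
KIT: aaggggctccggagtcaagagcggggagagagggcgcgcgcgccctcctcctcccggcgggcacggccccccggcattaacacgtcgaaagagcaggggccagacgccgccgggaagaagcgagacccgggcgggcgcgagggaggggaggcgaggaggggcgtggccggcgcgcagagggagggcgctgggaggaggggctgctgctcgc
MEIS1: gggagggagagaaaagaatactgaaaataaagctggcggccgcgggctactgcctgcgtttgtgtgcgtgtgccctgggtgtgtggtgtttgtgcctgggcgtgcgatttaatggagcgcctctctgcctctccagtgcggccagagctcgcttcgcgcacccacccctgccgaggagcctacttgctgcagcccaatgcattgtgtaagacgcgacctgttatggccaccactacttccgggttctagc
MSI2: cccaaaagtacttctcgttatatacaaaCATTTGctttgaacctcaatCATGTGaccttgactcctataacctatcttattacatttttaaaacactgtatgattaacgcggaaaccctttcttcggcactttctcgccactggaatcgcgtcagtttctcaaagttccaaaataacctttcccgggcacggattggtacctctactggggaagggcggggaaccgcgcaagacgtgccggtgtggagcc
The KIT stretch is 76.3% G and C, the MEIS1 stretch 59.6% and the MSI2 stretch 46.4%. The MSI2 stretch holds 2 CANNTG matches and those of KIT and MEIS1 hold 0. The full windows of 300 bases hold 1 at KIT, 0 at MEIS1 and 2 at MSI2. A second MSI2 window, not shown, holds 0, and its stretch is 73.1% G and C. None of the 3 stretches holds GATAA on either strand, and neither do their full windows. Over 35116 RefSeq windows of 300 bases, 22.7% hold GATAA, 68.7% hold CANNTG and 95.5% hold GGAA, the core read by ETS factors, each searched on both strands and allowed to overlap the others. In the full windows of the other members, with ANGPT1 left out, GATAA occurred 2 times at LYL1, 1 time at SOX4 and 1 time at ERG. The ERG match lies in 2 of its 4 windows, which overlap each other. A match of letters is a description of the sequence and not a binding site.

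Total counts ran from 18420238 to 21361758 in Parental_1 and the clones, and were 12537146 in Parental_2 and 14146994 in the 48 h library. The parental libraries differed from each other: 11.8% of 13324 genes with at least 20 counts were at least 2-fold apart. All 13 markers of K562 identity, embryonic and fetal globins, GATA1 and others, had counts in every library, and their summed level ran from 3850 to 11055 CPM (counts scaled to library size, by TMM within each table). Endothelial markers summed to 104 CPM in Parental_1, 57.4 to 161 CPM in the clones, 98.1 CPM in Parental_2 and 50.9 CPM at 48 h, and of the 9 measured, 4 were at 0 in each parental library and 0 in the others. EGFL7 alone gave 101 CPM of that sum in Parental_1. The whole sum was below that in ATC1 (97.3 CPM) and ATC4 (57.4 CPM), so EGFL7 was lower there than in Parental_1. In ATC2 and ATC3 the sums were 139 and 161 CPM. The 5 endothelial markers with at least 20 counts, of which 3 were under 20 in Parental_1, had median log2 ratios of 1.84, 2.59, 2.48 and 0.87 in the clones. Named after their values were seen, VWF had 1 count in Parental_1 and 26, 251, 313 and 1 in the clones, and CDH5 had 0 counts in both parental libraries and 4, 5, 1 and 1 in the clones. Mast cell markers summed to 1.75 CPM in Parental_1, 4.14 to 7.92 CPM in the clones, 2.94 CPM in Parental_2 and 29.7 CPM at 48 h, and 2 of the 7, the tryptase genes TPSAB1 and TPSB2 that define the cell, were at 0 there. Both were also at 0 in the parental libraries, and the clones had 3, 10, 2 and 0 counts of TPSAB1 and 2, 5, 4 and 0 of TPSB2. FCER1A, a chain of the IgE receptor, also named after its values were seen, had 3 counts in Parental_1 and 27, 71, 68 and 2 in the clones. The 3 mast cell markers with at least 20 counts, of which 2 were under 20 in Parental_1, went otherwise. Their median log2 ratios were 0.70, 1.06, 0.24 and 1.30 in the clones, highest in ATC4, where KIT was lowest. HDC, histidine decarboxylase, named after its values were seen, gave 421 of the 456 mast cell marker counts at 48 h. Stromal markers summed to 2.55 CPM in Parental_1, 16.3 to 64.4 CPM in the clones, 1.56 CPM in Parental_2 and 23.8 CPM at 48 h. Lymphoid markers summed to between 9.53 and 32.8 CPM and monocyte markers to between 61.6 and 175 CPM over the 7 libraries. The part of these marker genes in the results below was not tested. In RNA from whole cultures, fewer cells that carry a transcript and less of it per cell cannot be told apart.

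Per kilobase of annotated exon, and with the 7 libraries scaled together, LYL1 had the highest level of the 10 genes in every library, from 34.5 to 54.6 CPM per kb, and ANGPT1 the second highest, from 2.92 CPM per kb at 48 h to 26.6 CPM per kb in ATC2. MSI2 (1.35 to 2.95 CPM per kb) and MEIS1 (0.747 to 2.47 CPM per kb) followed. Their order changed, with MEIS1 above MSI2 in ATC2 and ATC3 and below it elsewhere. KIT lay at 0.106 CPM per kb in Parental_1 and 0.254 CPM per kb in Parental_2, up to 1.49 CPM per kb in the clones and 1.99 CPM per kb at 48 h, where it was above MSI2 and MEIS1. KITLG, SOX4, ERG, CD34 and PROM1 stayed at or under 0.510 CPM per kb throughout, and their order rests on few counts.

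**Figure D1:**
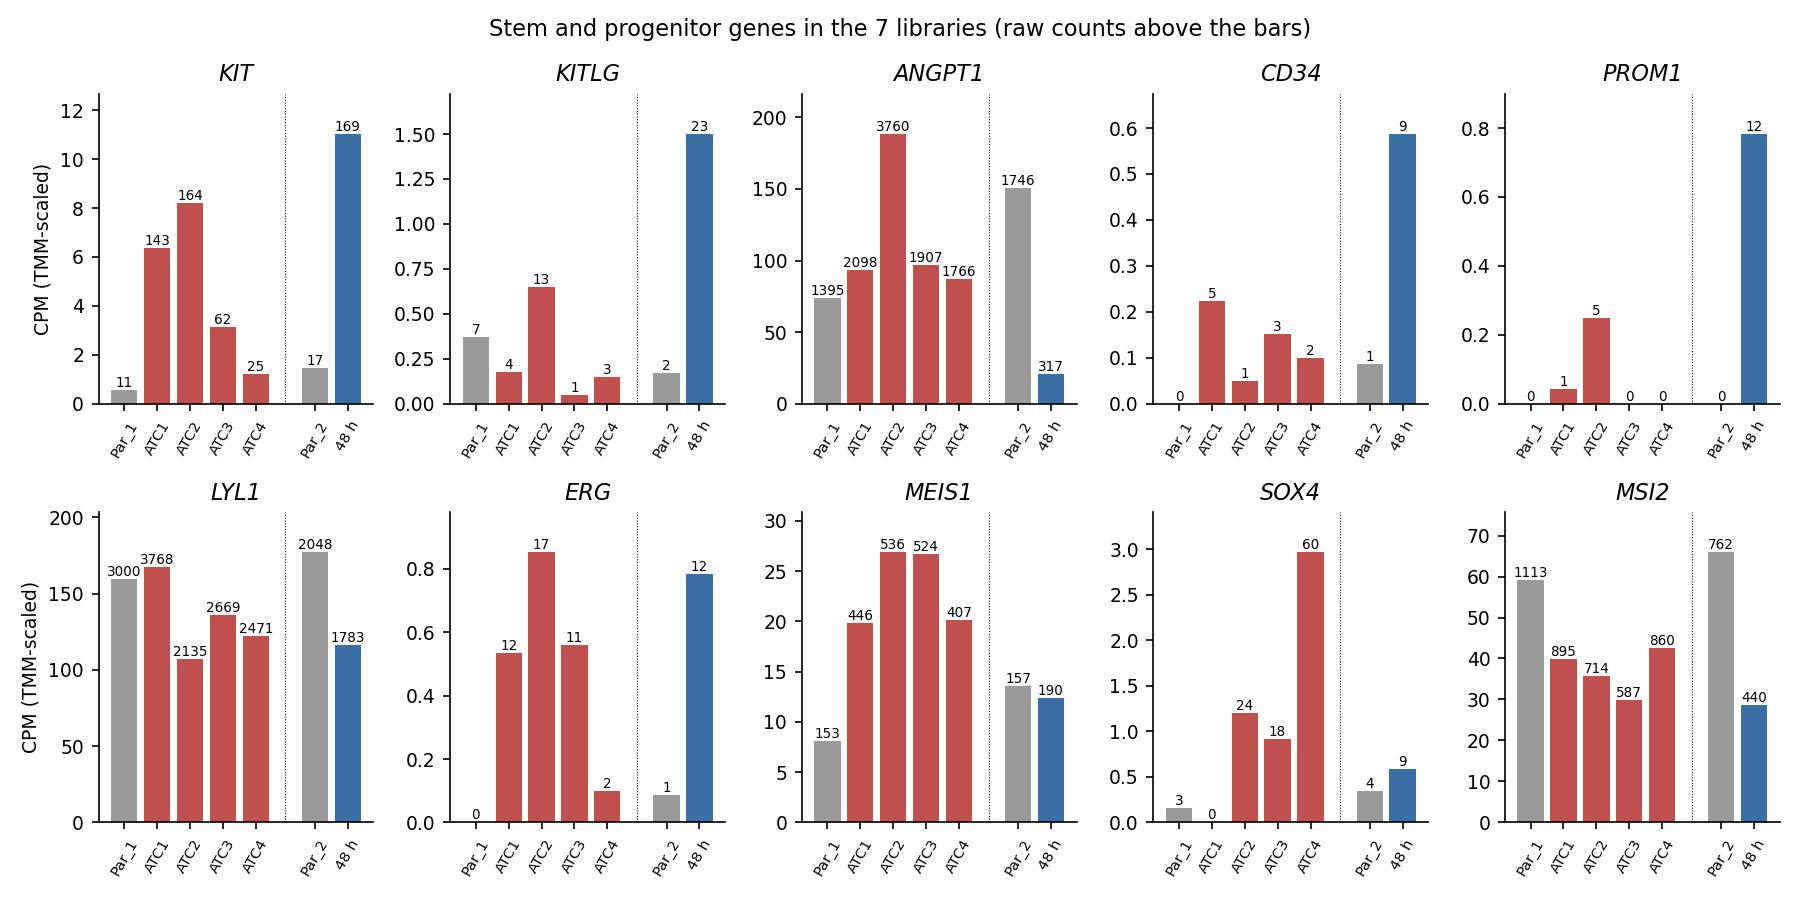
TMM-scaled CPM of the 10 genes (vertical axes from 0) in Parental_1 and Parental_2 (grey), the 4 clones (red) and the 48 h library (blue), with raw counts above the bars and a dotted line between the tables, which were scaled separately. KIT stands above Parental_1 in the 4 clones and is highest at 48 h, while ANGPT1 is lowest at 48 h and differs between the parental libraries.

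The 4 clones were set against Parental_1 in a quasi-likelihood fit (edgeR), p-values being adjusted by Benjamini-Hochberg over 18300 genes, which included 8 of the 10 members. CD34 and PROM1 did not pass the filter on low counts. No member passed an adjusted p of 0.05, and neither did any gene, 0% higher and 0% lower. Before adjustment, KIT and MEIS1 were higher at a p under 0.05 in edgeR, and so was ERG, which could not have been counted as lower since it had 0 counts in Parental_1 and entered the test through the clones. No member was lower, and 7.5% of all genes were higher and 4.28% lower. Scaling by library totals turned that background into 9.34% and 1.99%. No member passed in edgeR with both parental libraries either, where 1.48% of genes were called higher and 0.579% lower, or without the filter, where 0.0319% and 0.0232% were. The median log2 fold change was 1.10 for the 8 tested members and 0.11 for all tested genes, but KITLG, ERG and SOX4 passed the filter on low counts only through the clones. The median was 0.21 without ERG and SOX4 and 0.66 without all 3, so it is no sign of a direction of the set. Counted without a test on log2 ratios with a prior count of 2, which draws low counts toward 0, MEIS1 was the member past 2-fold upward in all 4 clones, of 6 with at least 20 counts in some library, and 0 were past 2-fold downward. KIT missed that count through ATC4 alone, where its log2 ratio was 0.96 and its fold without a prior count was 2.11, and with a prior count of 0.5 the number of members was 2. Over 15916 such genes, 6.71% were past 2-fold upward in all clones and 1.05% downward (8.05% and 0.679% when scaled by library totals). Leaving out ATC4 added KIT and leaving out ATC1 added SOX4. Both were under 20 counts in Parental_1, reached the minimum only through the clones and could hardly be counted as lower. The single parental library is assumed in this test to vary as the clones do, and leaving out ATC4 turned the calls over all genes from 0 into 49 higher and 35 lower, none of them a member.

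KIT (ENSG00000157404, chromosome 4, 54657918 to 54740715) had 11 counts in Parental_1 and 143, 164, 62 and 25 counts in the clones. The clones were all above Parental_1, by 10.9-fold (95% counting interval 5.91 to 22.3), 14.1-fold (7.65 to 28.7), 5.40-fold (2.82 to 11.4) and 2.11-fold (1.00 to 4.75). In the mean KIT reached 4.74 ± 3.14 CPM (SD, n = 4) against 0.585 CPM, a log2 fold change of 3.02 ± 1.20 (SE, derived from the F statistic of the fit), with an edgeR adjusted p of 0.407. The mean log2 ratio of the clones exceeded that of 96.6% of genes with at least 20 counts. KIT, with 11 counts in Parental_1, reached that minimum only through the clones, so this rank is set in part by the minimum. Parental_2 had 17 counts, 2.41-fold (1.06 to 5.69) the level of Parental_1, and against it ATC1, ATC2 and ATC3 were 4.53-fold, 5.85-fold and 2.25-fold higher while ATC4 was at 0.879 (0.456 to 1.73). KIT therefore stood above both parental libraries in 3 of 4 clones. ATC2 had 6.66 times (4.35 to 10.6) the level of ATC4, and with a library per clone only counting error can be given for that difference.

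The ligand gene KITLG (ENSG00000049130, chromosome 12, 88492793 to 88580851) was near the limit of detection, with 7 counts in Parental_1, 4, 13, 1 and 3 in the clones and 2 in Parental_2. The clones lay on both sides of Parental_1, at 0.257 ± 0.268 CPM (SD, n = 4) against 0.372 CPM, with an adjusted p of 0.887 in edgeR's test. Receptor and ligand did not share a direction in ATC1, ATC3 and ATC4, where KIT was above and KITLG below Parental_1, and the counting intervals of KITLG include 1 in all 4 clones.

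ANGPT1 (ENSG00000154188, on chromosome 8) is a highly expressed member, with 1395 counts in Parental_1 and 2098, 3760, 1907 and 1766 in the clones. It measured 117 ± 48.1 CPM (SD, n = 4) in the clones against 74.2 CPM in Parental_1. The fitted log2 fold change was 0.66 ± 0.49 (SE) and the adjusted p in edgeR 0.589. ATC2 stood apart at 188 CPM, 2.54-fold (2.39 to 2.70) above Parental_1, while ATC1, ATC3 and ATC4 lay at 93.4, 97.2 and 87.2 CPM. The sign of the difference depended on the parental library. Parental_2 held 1.95 times (1.82 to 2.09) the ANGPT1 of Parental_1, so that ATC1, ATC3 and ATC4 were at 0.647, 0.673 and 0.604 of Parental_2, ATC2 at 1.31, and the log2 fold change with Parental_2 in place of Parental_1 was -0.34 (adjusted p = 0.723 in edgeR's test). No direction for ANGPT1 in the clones can be given from these libraries.

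**Figure D2:**
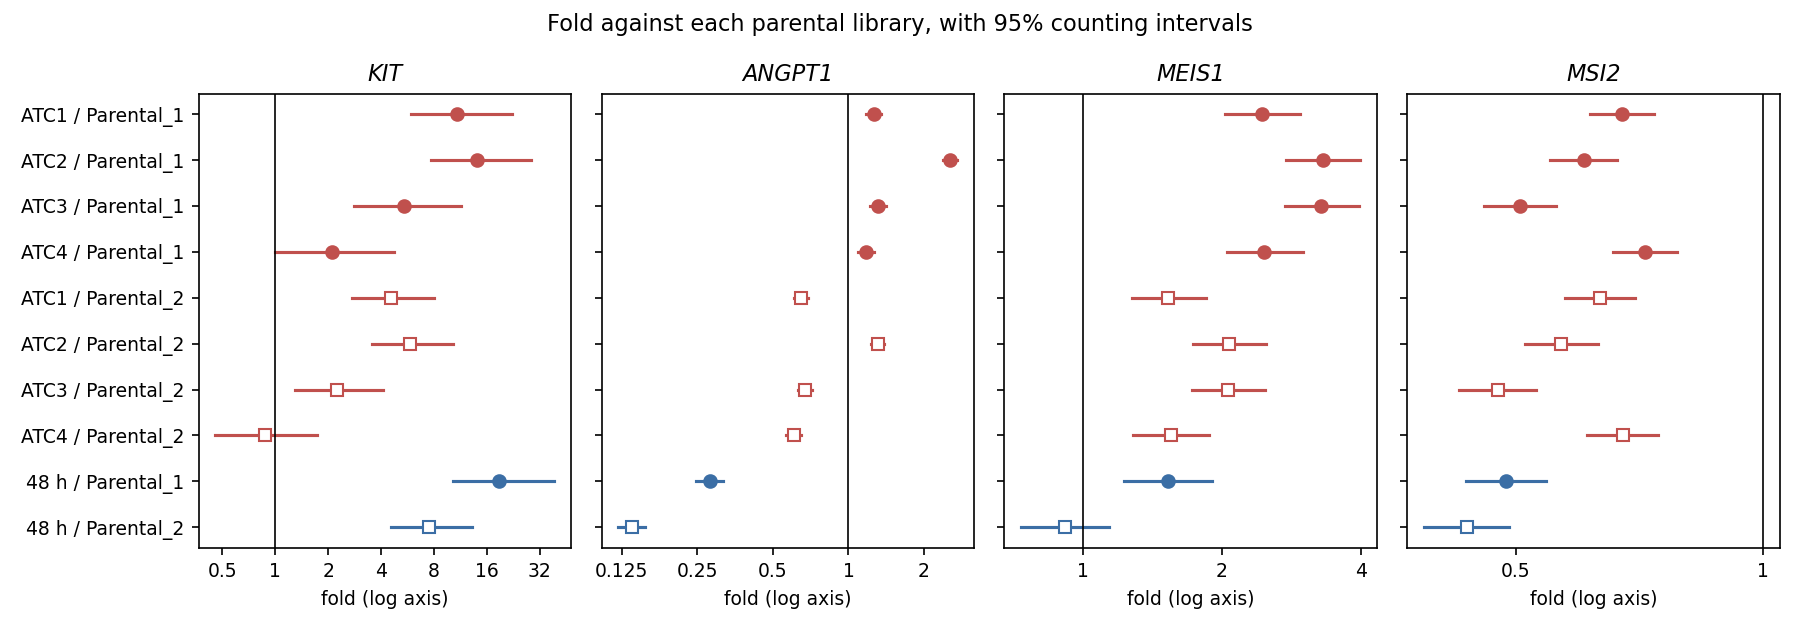
Fold of each clone (red) and of the 48 h library (blue) against Parental_1 (filled circles) and Parental_2 (open squares) for KIT, ANGPT1, MEIS1 and MSI2 on log axes, with 95% intervals that cover counting error only. MEIS1 is above 1 and MSI2 below 1 in every clone against either parental library, while 3 of 4 clones change side for ANGPT1.

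Of the surface markers, CD34 (ENSG00000174059, chromosome 1, 207880972 to 207911402) had 0 counts in Parental_1, 5, 1, 3 and 2 in the clones and 1 in Parental_2. PROM1 (ENSG00000007062, chromosome 4, 15963076 to 16084378) had 0 counts in both parental libraries, 1 in ATC1, 5 in ATC2 and 0 in ATC3 and ATC4. No difference of CD34 or PROM1 between clones and parental cells was detectable at this depth, where 0 counts allow up to 3. A count in all 4 clones, as for CD34, was present in 13.1% of the 9099 genes at 0 in Parental_1.

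Among the transcription factors, MEIS1 (ENSG00000143995, chromosome 2, 66433452 to 66573869), which binds DNA together with HOX proteins, differed least between clones. It had 153 counts in Parental_1 and 446, 536, 524 and 407 in the clones. All 4 clones were above Parental_1, as for 26% of all genes with at least 20 counts, by between 2.44-fold and 3.30-fold, and the highest clone was only 1.35 times the lowest. The clone mean was 23.4 ± 3.93 CPM (SD, n = 4) against 8.13 CPM, a log2 fold change of 1.53 ± 0.40 (SE) with an adjusted p of 0.330 in edgeR's test. DESeq2 called it (adjusted p = 0.00723), the only member it called, where it called 3.29% of genes higher and 0.717% lower. The adjusted p ranged from 0.00723 to 0.542 over the alternatives. DESeq2 gave no adjusted p for KITLG and ERG, and CD34 and PROM1 did not enter it, so these members could not be called. Parental_2 held 1.60 times (1.27 to 2.01) the MEIS1 of Parental_1. The clones were still 1.53-fold to 2.07-fold above Parental_2, with 4 of 4 above both libraries. The antisense genes MEIS1-AS2 and MEIS1-AS3, whose exons overlap those of MEIS1, had at most 3 counts in any library.

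ERG (ENSG00000157554, chromosome 21, 38380027 to 38661780) had 0 counts in Parental_1 and 12, 17, 11 and 2 in the clones. Against a floor of 3 counts in Parental_1 the clone mean of 0.511 ± 0.310 CPM (SD, n = 4) was 3.21-fold higher. This value leaves out the counting error of the clones and is not a minimum. The counting intervals of the folds over Parental_1 began at 2.33, 3.89, 2.41 and 0.174 in the clones. That of ATC4 includes no difference. All clones were above Parental_1, ATC4 by 2 counts only, and the adjusted p in edgeR's test was 0.401. A clone mean at least as high was reached by 2.22% of the genes at 0 in Parental_1. ERG had 1 count in Parental_2, and its level stayed under 1 CPM everywhere.

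SOX4 (ENSG00000124766, chromosome 6, 21592768 to 21598619) lay above Parental_1 in 3 clones and was not detected in the other. It had 3 counts in Parental_1 and 0, 24, 18 and 60 in the clones. ATC4 was 18.6-fold (6.06 to 92.6) above Parental_1, ATC2 7.54-fold (2.29 to 39.1) and ATC3 5.75-fold (1.68 to 30.5), whereas ATC1 held none, with an interval of 0 to 2.03 for its fold that includes no difference. The clone mean was 1.27 ± 1.24 CPM (SD, n = 4) against 0.159 CPM. The fitted log2 fold change was 2.95 ± 2.17 (SE) and the adjusted p in edgeR 0.588. The clone with the highest SOX4, ATC4, was the clone with the lowest KIT and ERG.

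LYL1 (ENSG00000104903, chromosome 19, 13099033 to 13103161), a partner of GATA and LMO2 complexes, lay close to its parental level. It had 3000 counts in Parental_1 and 3768, 2135, 2669 and 2471 in the clones, which is 133 ± 26.0 CPM (SD, n = 4) against 159 CPM. ATC1 was slightly above and the other 3 below, the log2 fold change was -0.25 ± 0.32 (SE), and the adjusted p in edgeR's test was 0.768.

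MSI2 (ENSG00000153944, chromosome 17, 57255851 to 57684685) was lower than Parental_1 in 4 of 4 clones, with 1113 counts there and 895, 714, 587 and 860 in the clones. The clones lay at 37.0 ± 5.47 CPM (SD, n = 4) against 59.2 CPM, between 0.506 and 0.718 of Parental_1. The log2 fold change was -0.67 ± 0.29 (SE) with an adjusted p of 0.430 in edgeR's test. The parental libraries were close, Parental_2 at 1.07 times (0.972 to 1.17) Parental_1, and the 4 clones were below both. Of all genes with at least 20 counts, 27% were lower than Parental_1 in all 4 clones.

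**Figure D3:**
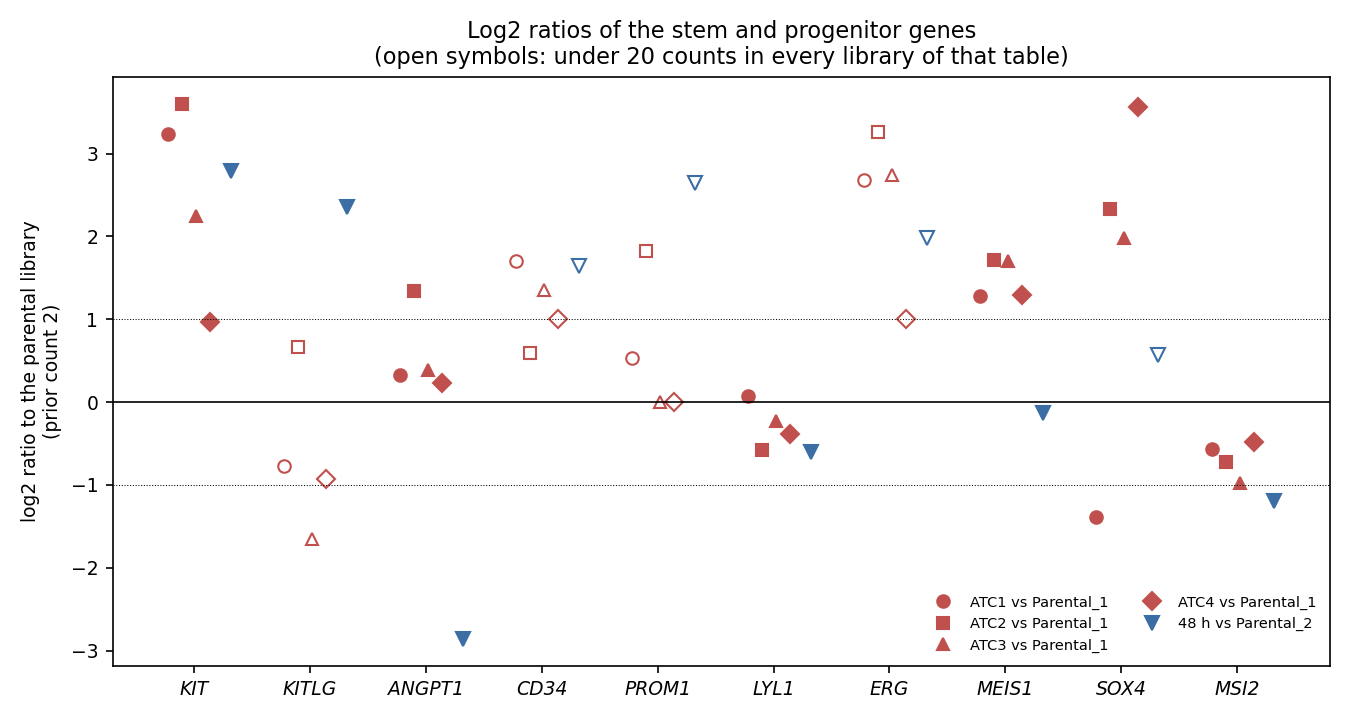
Log2 ratio of each clone to Parental_1 (red, a symbol per clone) and of the 48 h library to Parental_2 (blue triangles) for the 10 genes, with a prior count of 2. KIT lies between 0.96 and 3.60 in the clones and at 2.79 at 48 h, and ANGPT1 lies above 0 in the clones against Parental_1 and at -2.86 at 48 h.

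After 48 h of doxorubicin the receptor and its ligand were both higher than in Parental_2, and ANGPT1 was far lower. This comparison has 1 library on each side, so intervals cover counting error only and there is no replicate check. Of the 6 members with at least 20 counts, KIT and KITLG were at least 2-fold higher and ANGPT1 and MSI2 at least 2-fold lower. KIT, with 17 counts in Parental_2, and KITLG, with 2, reached 20 counts only through the treated library, and at a minimum of 50 counts 1 member was higher. Of 13865 genes with at least 20 counts, 13.5% were higher and 11.3% lower. Scaling by library totals turned that background into 17.4% and 6.9% and left MSI2 just short of 2-fold. KIT had 169 counts against 17, 11.02 against 1.47 CPM, 7.50-fold (95% interval 4.55 to 13.2), and its log2 ratio exceeded that of 97.6% of genes. Against Parental_1 it was 18.9-fold higher (10.3 to 38.6). KITLG had 23 counts against 2, 8.68-fold (2.14 to 75.9), and against the 7 counts of Parental_1 it was 4.04-fold higher (1.68 to 11.2). Of genes with at most 2 counts in Parental_2, 1.22% had 23 or more at 48 h.

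ANGPT1 had 317 counts at 48 h against 1746 in Parental_2, which is 20.7 against 151 CPM. Parental_2 thus held 7.30 times (6.47 to 8.25) the level of the treated library, and a log2 ratio of -2.86 placed ANGPT1 above only 0.353% of genes. Against Parental_1, where the gene was lower, the ratio was 3.58 (3.17 to 4.06). The 48 h library lay below both parental libraries and below all 4 clones, which had at least 87.2 CPM. MSI2 had 440 counts against 762, 28.7 against 65.9 CPM, so that Parental_2 held 2.30 times (2.04 to 2.59) the treated level. LYL1 was at 116 against 177 CPM, a ratio of 0.657 (0.616 to 0.700). MEIS1, at 12.4 against 13.6 CPM, was at 0.913 (0.735 to 1.14) of Parental_2 and was 1.53-fold (1.23 to 1.90) above Parental_1, so its direction at 48 h depended on the parental library.

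The rarest members were read a few times at 48 h. CD34 had 9 counts against 1 in Parental_2, PROM1 12 against 0, ERG 12 against 1 and SOX4 9 against 4. For PROM1 this is 3.02-fold against a floor of 3 counts, which is not a minimum, since its counting interval begins at 2.10. The fold was 6.79 (0.941 to 298) for CD34, 9.05 (1.34 to 387) for ERG and 1.70 (0.474 to 7.54) for SOX4. CD34 and PROM1 had more counts at 48 h than in any clone, ERG as many as ATC1 and fewer than ATC2, and SOX4 fewer than ATC2, ATC3 and ATC4. Of the 16427 genes with at most 2 counts in Parental_2, 6.59% had 9 or more at 48 h and 3.92% had 12 or more. The 48 h library had a count for 28172 genes and Parental_2 for 21934.

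A joint edgeR fit of all 7 libraries, added after the data were seen, tested the 48 h library against both parental libraries over 18777 genes, with those 2 libraries of 1 sample as replicates and the lone 48 h library assumed to vary like the others. No member passed an adjusted p of 0.05 in that fit, where 0.0426% of genes were called higher and 0% lower. At an unadjusted p under 0.05 in edgeR, 4 members were higher, KIT, CD34, PROM1 and ERG, the last 3 with at most 1 count in each parental library, and 2 were lower, ANGPT1 and MSI2, where the shares of all genes were 9.05% and 6.77%. The adjusted p in edgeR's joint fit was 0.179 for KIT (log2 fold change 3.46 ± 0.99), 0.156 for ANGPT1 (-2.43 ± 0.62), 0.192 for MSI2 (-1.12 ± 0.34) and 0.371 for KITLG (2.38 ± 1.19).

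Genes were ranked by the mean absolute difference of their 5 log2 ratios, 4 clones to Parental_1 and the 48 h library to Parental_2, from those of a member, over 12991 genes with a symbol. The nearest to KIT were GLRA3, NTRK3 and C1orf150, with mean differences of 0.333, 0.344 and 0.352 on the log2 scale. NTRK3, a neurotrophin receptor kinase, had 1 count in Parental_1, 22, 35, 11 and 5 in the clones, 0 in Parental_2 and 28 at 48 h, so its pattern rests on few counts. The nearest to ANGPT1 were NCOA7, CCPG1 and HERPUD1, with mean differences of 0.216, 0.242 and 0.244. HERPUD1, a gene of endoplasmic reticulum protein degradation, had 679 counts in Parental_1, 817, 1407, 812 and 995 in the clones, 1209 in Parental_2 and 237 at 48 h. ATC2 was highest among the clones and the 48 h library lowest of all, as for ANGPT1. The ranking selected genes for such ratios, so this likeness is no separate result.

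Genes that work with the members were read from lists, and in each list 0 genes passed edgeR's adjusted threshold. The shares of all genes to set beside the counts below are 6.71% upward and 1.05% downward past 2-fold in all clones, and 13.5% and 11.3% at 48 h. A gene under 20 counts in the parental library reaches the minimum only through the other libraries and can hardly be counted as lower. Of 20 genes of KIT signalling, 1 was at least 2-fold above Parental_1 in all clones and 1 below, and at 48 h 1 was higher and 8 lower, with a median log2 ratio of -0.85 against -0.09 for all genes. CBLB, a ubiquitin ligase that restrains receptor kinases, had 141 counts in Parental_1 and 1000, 823, 483 and 553 in the clones. SPRED1, an inhibitor of the RAS pathway, had 1878 counts in Parental_1 and 869, 763, 456 and 739 in the clones, and STAT5A, a transcription factor downstream of KIT and BCR-ABL1, 12154 and 4759, 4931, 3592 and 7288. At 48 h the adaptor GAB2 had a log2 ratio of -2.65. Among 8 progenitor cytokine receptors with at least 20 counts, CSF1R and IL6R, both under 20 counts in Parental_1, were past 2-fold upward in every clone and 0 downward. CSF2RB, the shared beta chain of the GM-CSF and IL-3 receptors, split the clones, with 111 counts in Parental_1 and 254, 571, 39 and 12 in the clones.

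Of the angiopoietin and TIE list, the receptor gene TEK, to which angiopoietin-1 binds, had 1 count in each parental library, 10, 47, 22 and 4 in the clones and 2 at 48 h, and the related TIE1 had 18 counts in Parental_1, 153, 125, 114 and 43 in the clones, 5 in Parental_2 and 16 at 48 h. Of 5 genes with enough counts TIE1 alone was past 2-fold upward in every clone, and it and TEK were under 20 counts in Parental_1. Both receptor genes are also on the list of endothelial markers. PTPRB, a phosphatase that acts on TEK, had 455 counts in Parental_2 and 121 at 48 h.

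Of 13 other stem cell surface genes with at least 20 counts, 6 were under 20 counts in Parental_1, among them 3 of the 4 that were past 2-fold upward in every clone, and 0 were past it downward. The list's level in the clones is therefore set in part by the count minimum, and its median is given only with the plot of the lists. ITGA6, integrin alpha 6, had 2 counts in Parental_1 and 107, 301, 86 and 8 in the clones. CD244 had 0 and 239, 300, 116 and 5, and ESAM, an adhesion molecule, 25 and 304, 1052, 406 and 33. In these 3 genes ATC4 was the lowest and ATC2 the highest of the clones, the order also seen for KIT and ERG. That shared order was chosen after the values were seen.

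Of 17 stem and progenitor transcription factors with at least 20 counts, 1, under 20 counts in Parental_1, was past 2-fold upward in every clone and 1 downward. FLI1, an ETS factor closely related to ERG, had 1 count in Parental_1, 254, 630, 288 and 7 in the clones, 4 in Parental_2 and 8 at 48 h. MECOM, a zinc finger factor of stem cells, had 1019 counts in Parental_1 and 78, 256, 74 and 25 in the clones. On the list of MEIS1 partners, its paralog MEIS3 had 8 counts in Parental_1 and 530, 411, 395 and 161 in the clones. It was also higher at 48 h, with a log2 ratio of 2.56. MLLT3 had 1 count in Parental_1 and 631, 1, 66 and 630 in the clones. Of 10 RNA-binding genes listed with MSI2, 0 were past 2-fold upward in every clone and 1, LIN28B, downward, and at 48 h 6 of 9 were at least 2-fold lower, with a median of -1.23. LIN28B had 3104 counts in Parental_1 and 1553, 1474, 1138 and 1291 in the clones, and at 48 h 872 against 2314. Of 6 SOX family genes besides SOX4, 0 were 2-fold apart in all clones in either direction. Of the 17 genes of a published leukaemia stem cell score, CD34 among them, 12 had enough counts. Against Parental_1, 4 were past 2-fold upward and 1 downward in all clones, and at 48 h 3 of 10 were higher and 2 lower, and the 4 and the 3 higher genes were all under 20 counts in their parental library. MMRN1, multimerin, had 1 count in Parental_1 and 114, 684, 264 and 94 in the clones, and AKR1C3, an aldo-keto reductase, 53 and 10, 5, 13 and 15.

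**Figure D4:**
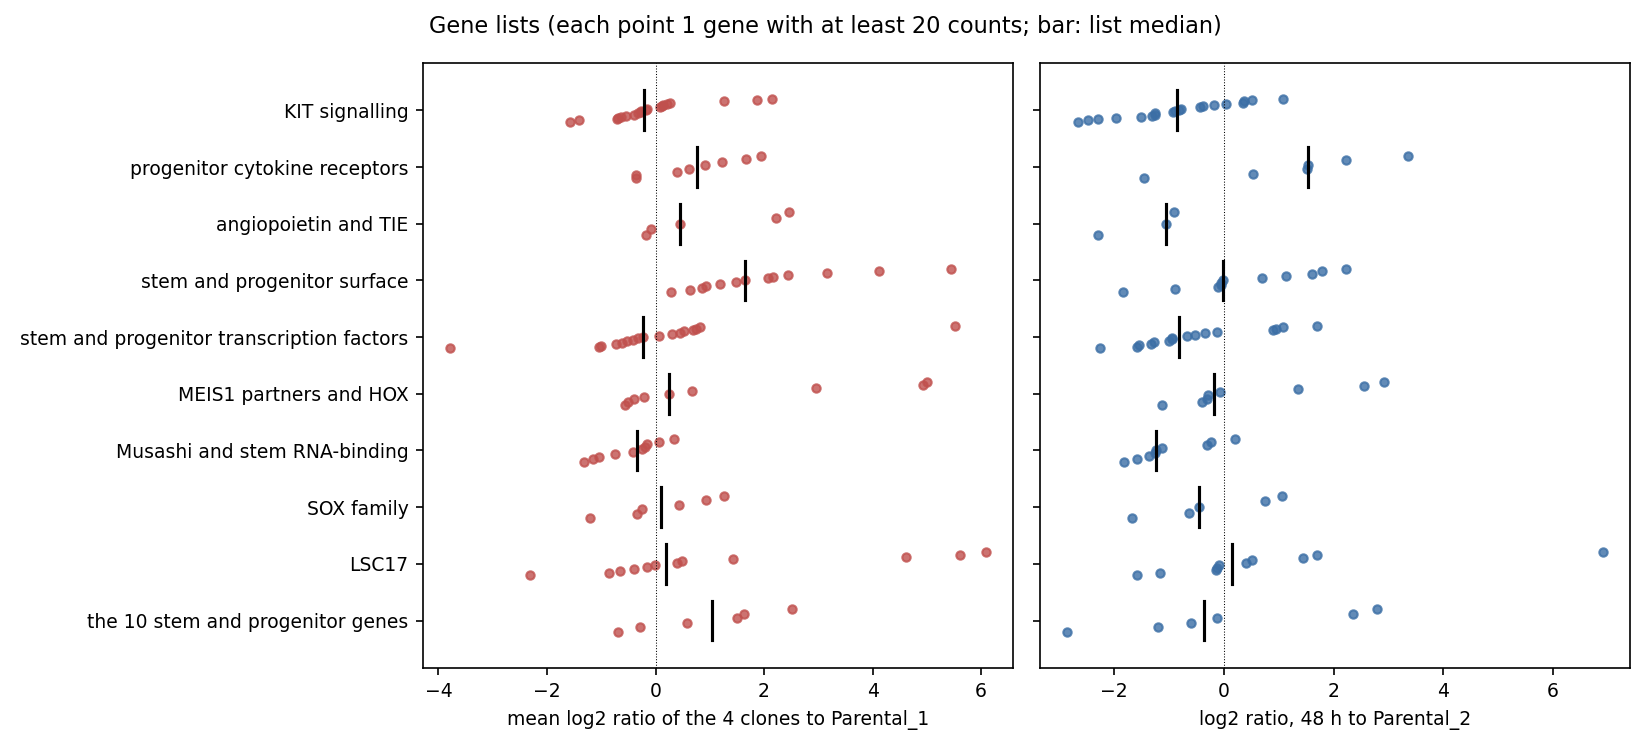
Mean log2 ratio of the 4 clones to Parental_1 (left, red) and log2 ratio of the 48 h library to Parental_2 (right, blue) for each gene with at least 20 counts in each list, with the list median as a black bar. The surface list has a median of 1.65 in the clones, where 6 of its 13 genes reach the minimum only through the clones, and of -0.02 at 48 h, and the lists of KIT signalling and RNA-binding genes have medians of -0.85 and -1.23 at 48 h.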

How the data were processed

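RNA sequencing had been done on stranded poly(A) libraries (TruSeq), per the labels' protocols. Both deposited tables give read counts by gene as whole numbers, raised by 1 by the authors, and a pair of libraries without any read is left missing. For use here 1 was taken off and a missing pair counted as 0, and the 4 copies of Parental_1 were checked to be identical. Per the submitters' processing notes the genome was GRCh38. The tables' own gene positions were not used, and positions were taken by Ensembl ID from GENCODE 29. Aligner, counter and use of strand: not given in the sources used here. A place in the series' design text has ng/ul for the drug, and ng/ml is used, as the samples' protocols have it.

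The members and lists were chosen with earlier results of these data known. Clones and Parental_1 entered a fit in edgeR 4.0.16 (R 4.3.3; quasi-likelihood, TMM, its own filter, 3 residual degrees of freedom). SEs are the absolute log2 fold change over the square root of F. Log2 ratios used a prior count of 2 and genes with at least 20 counts in the highest library of the table. Folds have exact conditional 95% intervals from the counts, which cover counting error only, and a floor of 3 counts stands for 0. Beside the members, named genes come from the 3 highest and 3 lowest of each list by mean clone ratio and its highest and lowest at 48 h, the 3 nearest to KIT and to ANGPT1, genes that overlap a member, and defining markers at 0. The marker genes EGFL7, VWF, CDH5, FCER1A and HDC were named outside these rules. Nothing says that the clones were cultured in separate experiments, so p-values measure only the spread between these samples. Alternatives were DESeq2 1.42.0, limma-voom (limma 3.58.1), other scalings, filters, prior counts and parental libraries, and each clone left out. On simulated counts for the clones against Parental_1, edgeR recovered 6.5% of 200 genes changed 4-fold (17400 genes tested), 88.5% changed 16-fold (17447 genes) and 93.5% changed 64-fold (17513 genes). In the deposited counts MEIS3 and MMRN1, with fitted log2 fold changes of 5.40 and 7.93 in the clones, did not pass edgeR's adjusted threshold. Every simulated gene was given the same biological coefficient of variation, 0.429, with no spread of its own. Whether these recovery rates hold at the spread seen between the 4 clones was not tested. All columns of sample values were used. Some genes of the lists are not reported here.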

Additional observations from a re-analysis of the deposited data

Results flagged for a closer look

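ANGPT1 in ATC2 stood apart from the other 3 clones. The gap from ATC2 to the next clone was 0.901 of the range of the 4 clones in CPM, past Dixon's 95% critical value, which chance passes in about 1 of 20 groups. That rate is for 1 gene looked at alone, and ANGPT1 was flagged because of its value. The values were 188 CPM in ATC2 and 93.4, 97.2 and 87.2 CPM in ATC1, ATC3 and ATC4.

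For ANGPT1 the clones and the 48 h library lay on opposite sides of their parental libraries. Log2 ratios were 0.33, 1.34, 0.39 and 0.23 in the clones against Parental_1 and -2.86 at 48 h against Parental_2. The difference between these contrasts was not tested, and the sign in 3 of 4 clones turned against Parental_2. The 48 h library was below both parental libraries.

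For MEIS1 the log2 ratios were 1.28, 1.71, 1.70 and 1.29 in the clones against Parental_1 and -0.13 at 48 h against Parental_2. The difference was not tested, and the 48 h value was 0.57 against Parental_1.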

How the results depend on the processing

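No member passed in edgeR's test under any scaling, filter, parental library or clone left out, and DESeq2 called 1 member, MEIS1. Over all genes edgeR called 0 higher and 0 lower, 11 and 8 without a filter on low counts, 248 and 97 with both parental libraries, and 0 to 49 higher and 0 to 35 lower with a clone left out, where ATC4 gave the highest values. DESeq2 called 473 and 103, and limma-voom 0 and 0. The median log2 fold change of the tested members was 1.10, which rests on members that passed the filter only through the clones. It was 2.23 without the filter and 2.24 with the 48 h library in the fit, where all 10 members were tested. Both fits thus took in CD34 and PROM1, which had at most 1 count in each parental library. With Parental_2 in place of Parental_1 the log2 fold change turned to -0.34 for ANGPT1 and 0.58 for KITLG. KIT (1.72 to 3.32), MEIS1 (0.82 to 1.71), MSI2 (-0.80 to -0.48) and LYL1 kept their sign under all alternatives tried. ERG and SOX4 also did, but both passed the filter only through the clones. ERG, with 0 counts in Parental_1 and 1 in Parental_2, could hardly have turned negative, so its sign is no check. The count of members 2-fold higher in all clones was 1, 2 with library totals, 2 with a prior count of 0.5, 0 with Parental_2, and 1 to 2 with a clone left out. At 48 h the members 2-fold higher were 2, 4 at a minimum of 10 counts and 1 at a minimum of 50, and those 2-fold lower were 2, and 1 with library totals. Library totals moved the median of all genes from 0.11 to 0.29 in the clones and from -0.09 to 0.14 at 48 h. Depth limits KITLG, CD34, PROM1, ERG and SOX4, which had few counts. No paired analysis was possible because the groups share no more than 1 replicate number.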
